A study of Leptinotarsa decemlineata with 6 samples.

Results

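The genes described here are those of the Colorado potato beetle (CPB, Leptinotarsa decemlineata) whose best protein match carries the name of a sperm, testis or axoneme protein. A gene was taken when its Swissprot name held axonemal, tektin, protamine, radial spoke, cilia- and flagella, outer dense fiber, sperm or testis, leaving out proteases, cathepsins and the polyamine enzymes named for spermine and spermidine. It also had to reach a mean of at least 1 TPM (transcripts per 1000000, a level corrected for transcript length and library depth) in the non-treatment group or in the antibiotic group. Of 236706 assembled genes, 32996 had a Swissprot match, 142 of these carried one of the names, and 81 reached the TPM threshold. Because the group means chose the members, the differences between groups given below for members are a description and are not independent evidence of a direction. The best match lay in a vertebrate for 74 members, in Drosophila for 2, in the boll weevil Anthonomus grandis for 2, in a sea urchin for 2 and in the sea squirt Ciona for 1, so symbols below are those of the matched protein, followed by the Trinity name of the CPB gene.

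The axoneme is the microtubule core of a motile cilium or flagellum. Dynein arms on its outer microtubule doublets make them slide, radial spokes and the central pair control the sliding, and tektins and other proteins that line the doublets stiffen them. Most cells of an adult insect have no motile cilium. In Drosophila the axonemal dynein genes are used in the sperm tail and in the sensory cilia of chordotonal neurons, the stretch and hearing receptors, of which the antenna holds many. Sperm also repack their DNA, in many animals with protamines in place of histones.

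The study asked how antibiotic feeding, used to lower the gut microbes, changed olfactory genes. It compared 3 libraries of the non-treatment group with 3 of the antibiotic group, all from wild-type adult CPBs and all labelled head, with olfactory cells given as the cell type. In the methods, antibiotic beetles ate potato leaves soaked in a mixture of tetracycline, penicillin, ofloxacin, ciprofloxacin and ampicillin with Tween-20 for 3 days, and control beetles ate leaves with sterile water and Tween-20. The dose given to the sequenced beetles, their age and their sex are not given in the labels, nor is whether the libraries of a group came from separate pools of beetles, so the spread between libraries may be technical.

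The head label was checked against marker genes. A rhodopsin gene (DN52274_c7_g1), the light receptor of the eye, lay at 0.592, 0.639 and 0.252 TPM in non-treatment libraries against 161, 212 and 138 TPM in the antibiotic libraries. An arrestin homolog (DN59620_c3_g2), which switches off activated receptors, lay at 0.292, 0.553 and 0.552 TPM against 107, 125 and 89.7 TPM. The odorant coreceptor was listed at 0 in the 3 non-treatment libraries and at 0.175, 0.109 and 0.950 TPM in the antibiotic libraries. The rhodopsin gene and this arrestin homolog were thus near 0 in the non-treatment libraries alone. The odorant coreceptor was under 1 TPM in all 6 libraries. Of 19 tested genes with rhodopsin, opsin or arrestin in the name, 7 were higher in the antibiotic group and 1 was lower. Their summed level was 109 to 129 TPM in non-treatment libraries against 436 to 602 TPM in the antibiotic libraries. These names also took in arrestin domain-containing proteins and beta-arrestins, which are not named for the eye. The lower gene was an arrestin domain-containing protein 3 match (DN57622_c2_g1). Of 53 tested genes on a gut list taken by name, 24 were lower in the antibiotic group and 1 was higher. Their sums were 5276 to 6418 TPM in non-treatment libraries against 2597 to 3722 TPM in the antibiotic libraries. The list took names with trypsin, chymotrypsin, peritrophin, digestive cysteine proteinase or aminopeptidase N. It thus also holds trypsin and chymotrypsin inhibitors and neurotrypsin. An inter-alpha-trypsin inhibitor match (DN54882_c2_g2), for example, had means of 406 and 365 TPM. Gut genes and eye genes below mean all genes of these name lists. A gene kept only because 1 group reached 1 TPM has its direction fixed by that threshold. This held for 23 of the gut genes, kept through the non-treatment group, of which 20 were called lower, where 24.8% of all genes kept in that way were called lower. It also held for 4 of the eye genes, kept through the antibiotic group and all called higher, where 9.25% of all such genes were called higher. The 1 gut gene called higher was among 2 gut genes kept through the antibiotic group alone. The 1 eye gene called lower was kept through the non-treatment group alone, so the threshold fixed these directions too. Among genes present in both groups, 4 of 28 gut genes were called lower and 3 of 14 eye genes were called higher, where 2.67% of all such genes were called lower and 2.83% higher. The part of these markers in the results below was not tested, and tissue and treatment cannot be told apart in these libraries. In bulk libraries, fewer cells of a type and less RNA per cell cannot be told apart either. Spearman correlations of TPM lay between 0.814 and 0.869 within groups and between 0.6 and 0.721 across them, and the 5 libraries with usable counts held 25397497 to 33613953 counts.

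Most members were higher in the non-treatment libraries. Differences are given as antibiotic minus non-treatment in log2(TPM + 1), with the standard error (SE) of a limma fit to all 33919 genes with a mean of at least 1 TPM in a group, and a gene was called when its Benjamini-Hochberg adjusted p over all of them was under 0.05. Of the 81 members, 49 were called lower in the antibiotic group, 3 were called higher and 29 were not called. Over all genes tested, 7.26% were called lower and 2.88% higher, a share from which nothing is read here because the threshold used the same values. The count lower was 32 when antibiotic replicate 1 was left out, where 3.48% of all genes tested were called lower. The TPM values of the 2 groups did not overlap for 56 members that were lower and 5 that were higher, against 19.8% and 10.5% of all genes tested. The median difference was -2.05 over the members and -0.09 over all genes tested.

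The route into the list matters for these counts. A mean of at least 1 TPM was reached in both groups by 28 members, in the non-treatment group alone by 52, and in the antibiotic group alone by 1. Of the 52, 44 were called lower and 8 were not called. Their non-treatment mean had to be the higher one, since they were kept only through that group, and among all 7481 genes kept in that way 24.8% were called lower. The summed level of the 52 was 1705, 1244 and 341 TPM in non-treatment libraries against 13.7, 12.1 and 9.49 TPM in the antibiotic libraries. The 8 uncalled members matched CFAP44, CFAP47, CFAP61, DNAH7, RSPH4A, SPATA20, tektin-3 and topi, and none of them exceeded 6.99 TPM in a library. Of the 28 members present in both groups, 5 were called lower, 3 were called higher and 20 were not called, with a median difference of -0.12. Among all 22882 genes with at least 1 TPM in both groups, 2.67% were called lower and 2.83% higher. The 5 lower calls depended on single libraries, and none of them was called when non-treatment replicate 2 or antibiotic replicate 1 was left out.

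**Figure D1:**
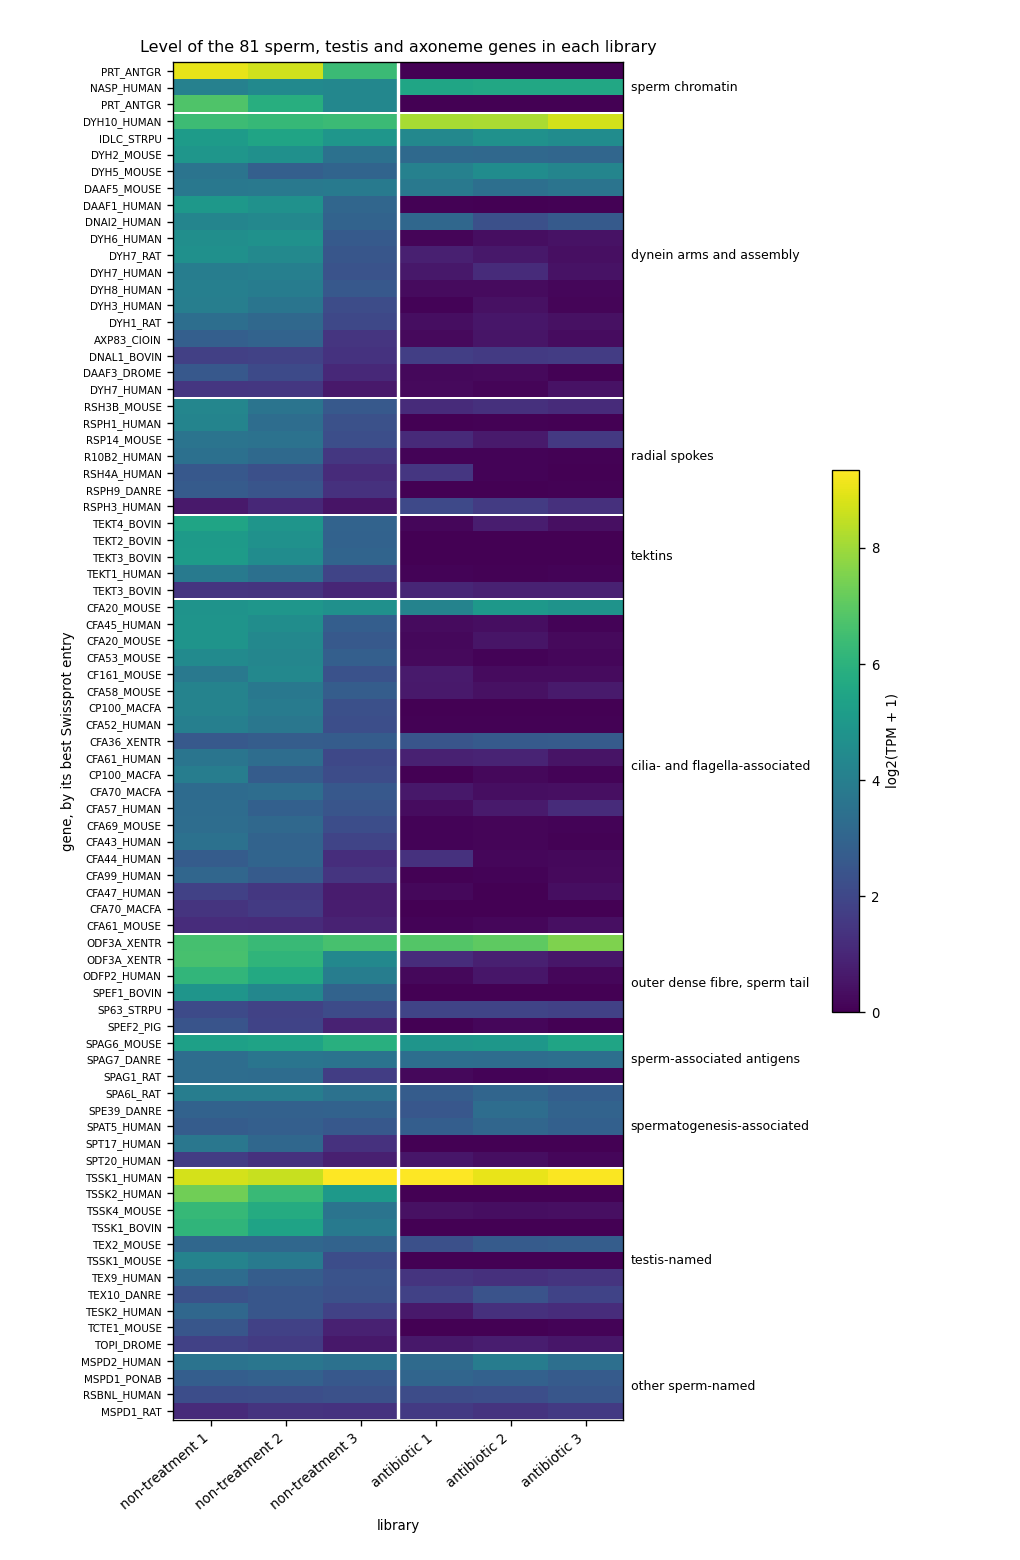
Level of each of the 81 members (rows, by Swissprot entry, grouped by role and ordered by mean) in the 6 libraries (columns), as log2(TPM + 1) by colour. Most rows are bright in non-treatment 1 and 2, dimmer in non-treatment 3 and dark in the 3 antibiotic libraries, and 28 rows hold at least 1 TPM in both groups.

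Sperm chromatin genes held the largest difference of the list. Protamine, the small basic protein that packs sperm DNA, was matched by DN62402_c0_g1, which lay at 516, 408 and 81.8 TPM in non-treatment and was listed at 0 in the 3 antibiotic libraries. In counts it had 26988, 22022 and 4805 against 0 and 0 in the antibiotic libraries with counts, which is at least 7312-fold higher in counts per 1000000 (CPM) when each antibiotic library is set at a floor of 3 counts. Its difference was -8.02 (SE 0.63), and it was called. A further protamine gene, DN48230_c0_g1, lay at 108, 57.7 and 19.2 TPM and was also listed at 0 in every antibiotic library, at least 1051-fold by the same floor. Both genes were highest in non-treatment replicate 1 and lowest in replicate 3, and the groups did not overlap. NASP (DN53938_c6_g2) is a histone chaperone that vertebrates make in testis and in dividing somatic cells. It went the other way, at 16.2, 20.8 and 19.1 TPM against 43.6, 47.2 and 47.3 TPM, and was called higher by 1.26 (SE 0.18).

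The dynein arm genes were divided. Of 17 members, 9 were called lower, 2 higher and 6 were not called. Over all genes tested, 7.26% were called lower and 2.88% higher. For 10 of the 17, kept through the non-treatment group alone, the threshold fixed the lower antibiotic mean. The share called lower among all genes kept in that way was 24.8%. The heavy chains, the motor subunits, gave 6 lower and 2 higher of 10, of which 7 were kept in that way. DNAH6 (DN64751_c0_g1) lay at 23.8, 25.8 and 5.28 TPM against 0.0831, 0.277 and 0.370 TPM in the antibiotic libraries, a called difference of -3.70 (SE 0.54). DNAH8 (DN64148_c0_g2), an outer arm heavy chain of mammalian sperm, lay at 15.3, 14.4 and 4.94 TPM against 0.205, 0.223 and 0.120 TPM and was called lower. Genes matching DNAH1 and DNAH3 and a pair of the 3 DNAH7 genes were likewise called lower, with differences between -3.25 and -2.42.

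The gene matching DNAH10 (DN58913_c2_g2), an inner arm heavy chain in vertebrates, had the highest level of the dynein members and rose. It lay at 82.9, 76.5 and 82.8 TPM against 279, 288 and 417 TPM in the antibiotic libraries, a difference of 1.99 (SE 0.22). Unlike DNAH6 it was even across the non-treatment libraries, and every antibiotic library lay above every non-treatment one. The gene matching DNAH5 (DN60893_c0_g1), an outer arm heavy chain, lay at 11.2, 6.06 and 6.97 TPM against 16.5, 22.1 and 17.9 TPM and was called higher by 1.16 (SE 0.26). Its call was lost in the edgeR test on counts and when any library except non-treatment replicate 1 was left out. The gene matching DNAH2 (DN61854_c0_g1) stood between these patterns, at 29.3, 25.1 and 10.4 TPM against 8.09, 8.0 and 7.59 TPM. Its difference of -1.22 (SE 0.36) was not called, although the groups did not overlap, and it was -1.66 and called without non-treatment replicate 3.

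Of the 7 other dynein members, 3 were kept through the non-treatment group alone, and these 3 were called lower. The assembly factor DNAAF1 (DN64509_c0_g1), which acts in the cytoplasm to put dynein arms together before they enter the cilium, lay at 30.8, 25.8 and 7.48 TPM against 0.0477, 0.0149 and 0.0443 TPM, a difference of -4.22 (SE 0.48). The assembly factor DNAAF3 and a Ciona axonemal 84 kDa protein were called lower, with differences of -1.75 and -2.05. DNAAF5 (DN58591_c0_g1), also named an assembly factor, was not called and overlapped between groups, at 12.3, 12.9 and 13.6 TPM against 12.6, 9.77 and 11.2 TPM. The inner arm light chain of 33 kDa (DN52712_c1_g2) lay at 33.8, 42.8 and 29.4 TPM against 19.4, 25.3 and 22.4 TPM. The values did not overlap, but the difference of -0.63 (SE 0.21) was not called. The outer arm intermediate chain DNAI2 (DN54519_c3_g3) lay at 18.0, 19.6 and 6.83 TPM against 7.68, 3.87 and 5.25 TPM and was not called. The light chain DNAL1 (DN58847_c3_g1) lay between 1.59 and 2.55 TPM in all 6 libraries.

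Radial spoke genes were lower for 5 of 7 members, with a median difference of -2.15. For 4 of the 7, kept through the non-treatment group alone, the threshold fixed the lower antibiotic mean. The share called lower among all genes kept in that way was 24.8%. RSPH1 (DN48585_c0_g1), a spoke head protein, lay at 17.7, 9.19 and 4.02 TPM against 0, 0.0462 and 0 TPM in the antibiotic libraries. The spoke stalk protein RSPH3 was matched by a pair of genes with opposite order. RSPH3B (DN58068_c1_g3) lay at 18.4, 11.2 and 5.10 TPM against 1.2, 1.45 and 1.24 TPM, a called difference of -2.30 (SE 0.40) that was lost without non-treatment replicate 2 or antibiotic replicate 1. RSPH3 (DN56662_c5_g1) was the only member kept through the antibiotic group alone, at 0.573, 1.04 and 0.424 TPM against 3.18, 2.08 and 1.48 TPM, and its difference of 0.93 (SE 0.29) was not called. The spoke head matches RSPH9 (DN50810_c3_g1) and RSPH10B (DN50635_c3_g2) were called lower, with differences of -2.15 (SE 0.38) and -2.65 (SE 0.49). RSPH4A (DN52157_c6_g4), also of the spoke head, was not called, and of its antibiotic libraries at 1.77, 0.0625 and 0 TPM the first lay inside the non-treatment range of 1.23 to 4.93 TPM. RSPH14 (DN51049_c5_g1) lay at 11, 10.4 and 3.69 TPM against 1.18, 0.588 and 1.91 TPM with a called difference of -2.0 (SE 0.42), a call lost when non-treatment replicate 1 or 2 or antibiotic replicate 1 or 2 was left out.

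Tektins, the filament proteins of the doublet microtubules, were lower for 4 of 5 genes. Tektin-4 (DN59777_c13_g2) lay at 42.8, 28.2 and 6.93 TPM against 0.125, 0.693 and 0.303 TPM, a difference of -4.0 (SE 0.59). Tektin-2 (DN117813_c0_g1) lay at 33.5, 25.4 and 6.71 TPM against 0, 0.0180 and 0.0186 TPM, a difference of -4.24 (SE 0.52). The summed level of the 5 genes was 125, 87.5 and 24.6 TPM in non-treatment libraries against 1.21 to 1.57 TPM in the antibiotic libraries. All 5 were kept through the non-treatment group alone, so the threshold fixed their lower antibiotic mean. Among all genes kept in that way, 24.8% were called lower.

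Of the 20 cilia- and flagella-associated proteins (CFAPs), 15 were called lower, none higher and 5 were not called. For 18 of the 20, kept through the non-treatment group alone, the threshold fixed the lower antibiotic mean. The share called lower among all genes kept in that way was 24.8%. CFAP45 (DN54909_c0_g1) and CFAP53 (DN52042_c1_g3) sit inside the doublet microtubules of motile cilia. CFAP45 lay at 27.5, 22.7 and 5.93 TPM against 0.217, 0.282 and 0.0649 TPM, a difference of -3.82 (SE 0.51). CFAP53 lay at 21.3, 18.4 and 6.13 TPM against 0.190, 0.0611 and 0.111 TPM, a difference of -3.70 (SE 0.43). In these genes the antibiotic libraries stood below 1 TPM throughout. The other 13 called CFAP genes had differences between -3.61 and -1.23, and 1 of them, a CFAP100 match (DN52984_c0_g1) at 17, 13.8 and 3.92 TPM, was listed at 0 in the antibiotic libraries. CFAP44 (DN56604_c3_g1) lay at 5.62, 6.99 and 1.35 TPM against 1.55, 0.121 and 0.147 TPM and was not called, with antibiotic replicate 1 above the lowest non-treatment library. CFAP36 (DN56705_c2_g1) did not share this order, at 5.07, 5.70 and 5.67 TPM against 4.53, 5.21 and 5.40 TPM, and was not called.

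Among 6 outer dense fibre and sperm tail genes, 4 were called lower. These 4 were kept through the non-treatment group alone, so the threshold fixed their lower antibiotic mean. The share called lower among all genes kept in that way was 24.8%. ODF2 (DN64715_c2_g8), a protein of the dense fibres of mammalian sperm tails and of centrioles, lay at 70.5, 50.1 and 14.6 TPM against 0.136, 0.474 and 0.122 TPM, a difference of -4.96 (SE 0.53). SPEF1 (DN48913_c0_g1), a microtubule-binding protein of the central pair, lay at 28.2, 19.0 and 6.83 TPM and was listed at 0 in the 3 antibiotic libraries. Its counts of 576, 401 and 157 against 0 and 0 put it at least 153-fold higher in CPM by the same floor. SPEF2 (DN61561_c3_g3), a central pair protein, was called lower from 4.33, 2.73 and 0.879 TPM against 0, 0.118 and 0 TPM, while a sea urchin sperm flagellar membrane protein match (DN54854_c9_g1) lay between 2.49 and 3.39 TPM in all 6 libraries and was not called.

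The testis-named genes gave 7 lower calls of 11, and kinases held their highest levels. For 6 of the 11, kept through the non-treatment group alone, the threshold fixed the lower antibiotic mean. The share called lower among all genes kept in that way was 24.8%. The testis-specific serine/threonine kinases (TSSKs) act in mammals in sperm cells after meiosis. Of the 5 matching genes, 4 were kept through the non-treatment group alone, and these 4 were called lower. TSSK2 (DN44714_c0_g1) lay at 158, 79.2 and 31.5 TPM in non-treatment and was listed at 0 in the antibiotic libraries, at least 1589-fold higher in CPM by the floor, with a difference of -6.22 (SE 0.52). TSSK4 (DN52842_c5_g1) lay at 76.0, 53.4 and 11.1 TPM against 0.341, 0.286 and 0.306 TPM, a difference of -4.82 (SE 0.62). The member of the highest mean level, a TSSK1 match (DN63452_c5_g2), did not follow them. It lay at 428, 373 and 651 TPM against 651, 531 and 632 TPM, so the groups overlapped, and its difference of 0.36 (SE 0.27) was not called. Although its name is testis-specific, this gene was strongly expressed in all 6 libraries, and it was highest in the non-treatment library in which protamine was lowest. Of the other testis-named genes, TCTE1 (DN58706_c3_g1), a subunit of the dynein regulatory complex, was called lower at 4.63, 2.51 and 0.811 TPM against 0, 0 and 0.0585 TPM. TEX9 (DN63335_c2_g1) and the kinase TESK2 (DN57773_c3_g1) were called lower with differences of -1.45 (SE 0.28) and -1.44 (SE 0.37). The Drosophila meiotic arrest gene topi was matched by DN49648_c0_g1, at 2.53, 2.05 and 0.531 TPM against 0.524, 0.698 and 0.463 TPM, which overlapped and was not called. TEX2 and TEX10 matches, with differences of -0.49 and -0.34, were not called either.

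The remaining role groups held fewer called genes. Over all genes tested, 7.26% were called lower. Of 3 sperm-associated antigens, SPAG1 (DN62878_c0_g1), a dynein assembly protein in vertebrates, was called lower, with a difference of -2.64 (SE 0.45) that lost its call without antibiotic replicate 1, at 9.23, 8.92 and 2.25 TPM against 0.156, 0.0740 and 0.0921 TPM. SPAG6 (DN51075_c1_g1), a central pair protein, was not called and its groups overlapped, at 38.6, 41.9 and 57.9 TPM against 28.5, 29.8 and 43.4 TPM. SPAG7 (DN59127_c1_g1) lay between 9.07 and 11.4 TPM in all 6 libraries. Of 5 spermatogenesis-associated genes 2 were called lower, and 2 of the 5 were kept through the non-treatment group alone. SPATA17 (DN50195_c0_g1) lay at 12.1, 7.70 and 1.5 TPM and was listed at 0 in the antibiotic libraries. SPATA6L (DN51022_c2_g3) lay at 14.8, 14.6 and 10.6 TPM against 5.56, 7.37 and 5.95 TPM, a difference of -0.97 (SE 0.22) that was not called in edgeR or DESeq2, nor when any library except non-treatment replicate 3 was left out.

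Some sperm names stand for proteins that are also used outside sperm, and none of the 4 genes named for other sperm features was called. MOSPD2 (DN59697_c0_g5), a membrane contact protein with a major sperm protein domain, lay at 10.9, 11.9 and 10.3 TPM against 8.51, 14.1 and 9.67 TPM. A MOSPD1 match (DN52961_c3_g3) lay at 5.89, 6.44 and 5.0 TPM against 7.22, 6.39 and 5.45 TPM, and a further one (DN57824_c10_g1) lay between 1.2 and 1.98 TPM. RSBN1L (DN55512_c4_g4) lay between 3.56 and 4.65 TPM in all 6 libraries. SPE39 (DN55753_c2_g2), a protein of vesicle traffic, lay between 4.84 and 9.09 TPM, and SPATA5 (DN55398_c2_g1), an ATPase, between 4.91 and 7.55 TPM. All 6 genes overlapped between groups.

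**Figure D2:**
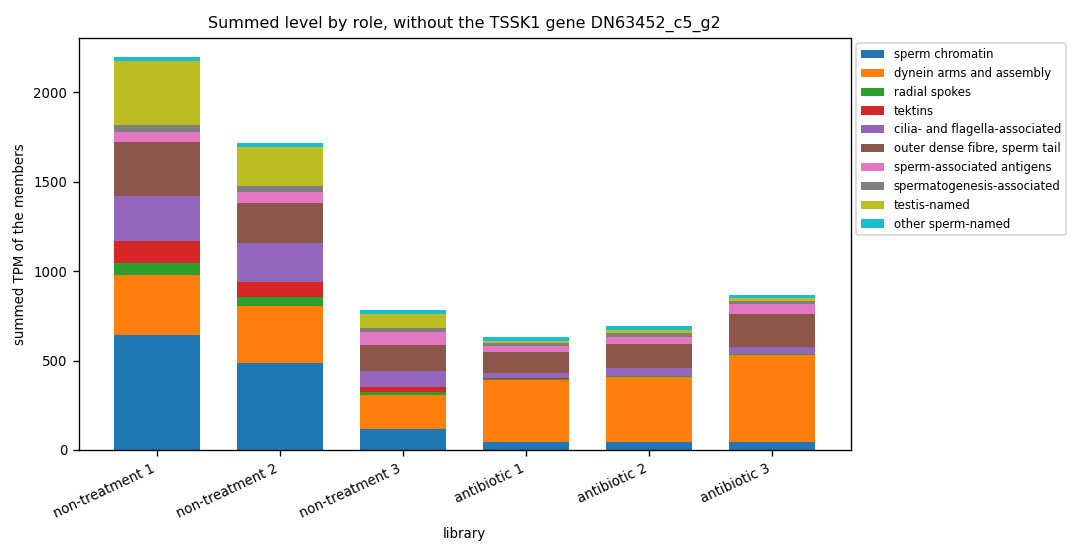
Summed TPM of the members by role (colours) in each library (bars from 0), leaving out the TSSK1 match DN63452_c5_g2, which lay at 373 to 651 TPM in every library. The sums were 2195, 1717 and 783 TPM in non-treatment libraries against 631, 694 and 869 TPM in the antibiotic libraries, where the dynein share is mostly the DNAH10 match.

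The summed level therefore depended on a few genes. Over all 81 members it was 2623, 2090 and 1434 TPM in non-treatment libraries against 1282, 1226 and 1501 TPM in the antibiotic libraries, and the groups overlapped. Without the 5 members of the highest mean it was 1343, 1073 and 488 TPM against 238, 275 and 268 TPM, and they did not. Of these 76 members, 50 were kept through the non-treatment group alone, which fixed their higher mean there. Over the 28 members present in both groups, which include the TSSK1 and DNAH10 matches, the sums were 917.5, 844 and 1093 TPM against 1265, 1212 and 1490 TPM.

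In all, 10 Swissprot names were shared by several members, and the members with 1 name did not always move together. CFAP20, which joins the tubules of a doublet, was matched by DN47314_c0_g1 at 26.7, 29.0 and 25 TPM against 17.4, 30.9 and 27.2 TPM, and by DN61605_c2_g1 at 27.4, 19.8 and 5.15 TPM against 0.15, 0.460 and 0.181 TPM. The former was not called and had no stable sign, while the latter was called lower at -3.61 (SE 0.53). ODF3, a sperm tail protein in vertebrates, showed the same split. DN58124_c3_g3 lay at 95.0, 79.3 and 98.9 TPM against 113.2, 131 and 184 TPM and was not called at 0.62 (SE 0.24), though its groups did not overlap. DN60758_c3_g1 lay at 97.4, 69.0 and 19.8 TPM against 1.25, 0.787 and 0.481 TPM and was called lower at -4.85 (SE 0.54). In non-treatment replicate 1 the genes of each pair were thus nearly level.

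Tektin-3 and TSSK1 also had matches of either kind. The tektin-3 gene DN44568_c0_g1 lay at 34.4, 22.3 and 7.13 TPM and was listed at 0 in the antibiotic libraries, a difference of -4.24 (SE 0.50), and DN50797_c0_g1 lay at 1.72, 1.64 and 1.01 TPM against 1.02, 0.818 and 0.834 TPM and was not called. Beside the uncalled TSSK1 match DN63452_c5_g2, DN55242_c1_g5 lay at 68.1, 42.0 and 13.4 TPM and DN57862_c7_g2 at 17.2, 13.1 and 3.59 TPM, and both were listed at 0 in the antibiotic libraries and called lower. In these 4 sets the genes called lower were lowest in non-treatment replicate 3. Of the uncalled matches, those of CFAP20 and tektin-3 were lowest there too, at a ratio to the mean of replicates 1 and 2 of 0.899 and 0.598, against 0.219 and 0.252 for the called ones. Genes with 1 name may be separate paralogs or pieces of 1 transcript, and how reads were shared between them is not known.

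**Figure D3:**
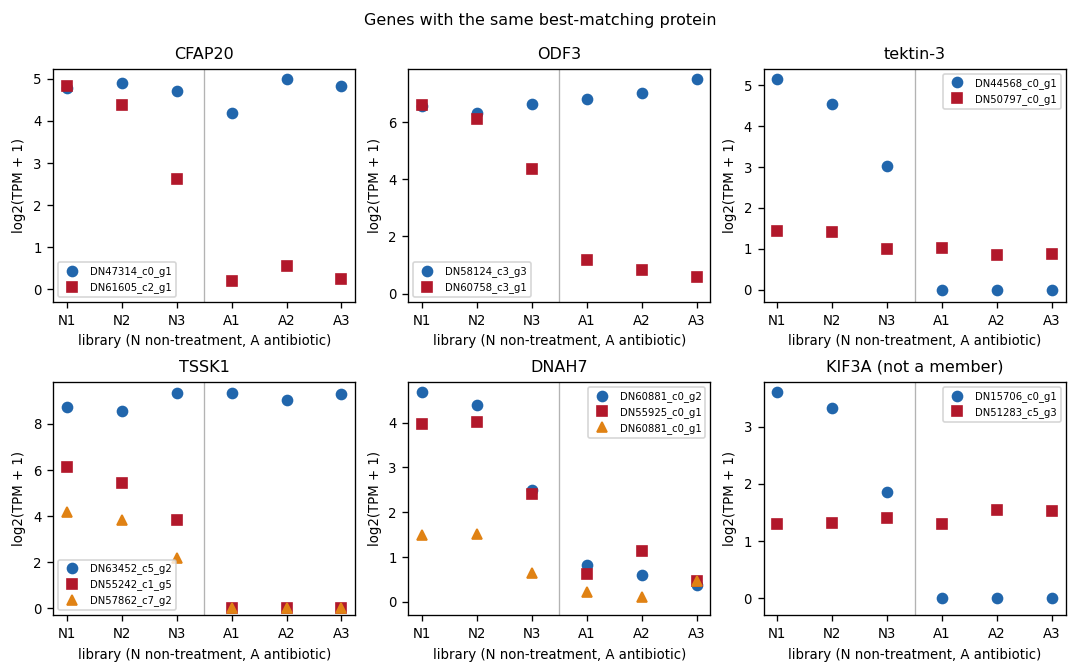
Level in log2(TPM + 1) of genes that share a best-matching protein, in the 3 non-treatment (N1 to N3) and 3 antibiotic (A1 to A3) libraries, 1 symbol and colour for each gene. For CFAP20, ODF3 and TSSK1, 1 gene lay at 17.4 TPM or more in all 6 libraries, and the others lay at no more than 1.25 TPM in every antibiotic library; the 3 DNAH7 matches all lay lower in the antibiotic libraries, and KIF3A, which is no member, is shown for its split.

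The members kept through the non-treatment group had a common profile inside that group, a measure that the rule did not set. All 52 were lowest in non-treatment replicate 3, and 44 were highest in replicate 1. The ratio of replicate 3 to the mean of replicates 1 and 2 had a median of 0.264, with quartiles of 0.235 and 0.304. Among all 7481 tested genes kept through the non-treatment group alone, 43.4% were lowest in replicate 3 and the ratio had a median of 0.735 with quartiles of 0.336 and 1.32. The 5 lower genes present in both groups were also lowest in replicate 3, with a median ratio of 0.425. The other 23 members present in both groups had a median ratio of 1.02, and 9 of them were lowest in replicate 3. These genes share their libraries, so the profile describes 1 library against 2 others and is not a replicated finding. The 24 gut genes that were lower in the antibiotic group had a median ratio of 0.829, and 7 of them were lowest in replicate 3. Which tissue the profile follows was not tested.

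**Figure D4:**
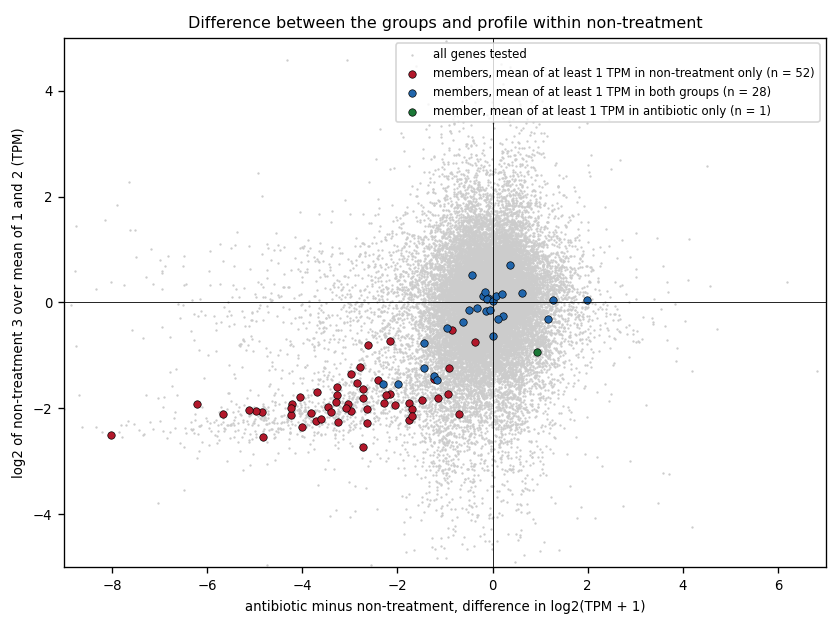
Difference between groups in log2(TPM + 1) (horizontal) against the log2 ratio of non-treatment replicate 3 to the mean of replicates 1 and 2 (vertical) for all genes tested (grey) and the members (colours by the group in which they reached 1 TPM). Genes with a ratio of 0 are not drawn, and a few lie outside the axes. The 52 members kept through non-treatment lie below 0 on the vertical axis, at a median ratio of 0.264, while most members present in both groups lie around the origin.

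Axoneme proteins with other names were examined in the same way. Of 18 tested genes of the dynein regulatory complex, the docking and ruler coiled-coil proteins the central pair and related proteins, 16 were called lower and none higher, with a median difference of -2.91, where 7.26% of all genes tested were called lower. The direction of 16 of the 18 was fixed by the threshold, since they reached 1 TPM in the non-treatment group alone. Of these 16, 15 were called lower, against 24.8% of all genes kept in that way, whose median difference was -0.83. Of the 2 present in both groups, 1 was called lower. Enkurin (DN56133_c0_g1), a protein inside the doublet microtubules, lay at 54.1, 36.5 and 13.4 TPM against 0, 0.0313 and 0 TPM. CCDC40 (DN57002_c0_g3), part of the ruler that spaces the dynein arms, lay at 39.8, 31.0 and 7.93 TPM against 0.218, 0.0656 and 0.123 TPM. All 18 genes were lowest in non-treatment replicate 3, with a median ratio of 0.265.

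Tubulins, the building blocks of the doublets and of all other microtubules, were split. Of 8 tested genes 4 were called lower and 4 were not called, where 7.26% of all genes tested were called lower. The threshold fixed the direction of 3 of the lower ones, which reached 1 TPM in the non-treatment group alone. Among all genes kept in that way, 24.8% were called lower. Of the 5 tubulins present in both groups 1 was called lower, against 2.67% of all such genes. The 2 genes with the highest level, a beta-1 tubulin (DN56428_c1_g2) at 553, 662 and 731 TPM against 628, 939 and 676 TPM and an alpha-1 tubulin (DN52534_c1_g1) at 455, 447 and 442 TPM against 336, 575 and 400 TPM, were not called and overlapped. A beta tubulin (DN57968_c12_g1) lay at 265, 200 and 56.1 TPM against 1.07, 4.18 and 3.23 TPM, and a beta-1 tubulin (DN58910_c4_g1) at 124, 80.1 and 16.9 TPM against 0.0477, 0.125 and 0 TPM. These were called lower, with differences of -5.35 (SE 0.60) and -5.75 (SE 0.65), and had the profile of the lower members. Both were named after their values were seen.

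Intraflagellar transport is the motor traffic that builds most cilia. In Drosophila the sperm flagellum is built without it, while sensory cilia need it. Of 19 tested genes 2 were called lower and none higher, where 7.26% of all genes tested were called lower, and the median difference was -0.41. Both called genes reached 1 TPM in the non-treatment group alone, as did 4 uncalled ones. The 2 genes of the highest level, both IFT172 matches (DN53492_c3_g2 and DN56391_c2_g4), had differences of 0.00 (SE 0.47) and 0.20 (SE 0.49) and were not called. The called genes were IFT140 (DN55541_c4_g1) and a KIF3A match (DN15706_c0_g1), a subunit of the transport kinesin, which lay at 11.2, 9.09 and 2.63 TPM and was listed at 0 in the antibiotic libraries. A further KIF3A match (DN51283_c5_g3) lay between 1.45 and 1.92 TPM in all 6 libraries. Among the uncalled genes, IFT80, IFT122, IFT56, BBS4 and B9D2 matches were also low in non-treatment replicate 3. Their ratios to the mean of replicates 1 and 2 were 0.253, 0.319, 0.284, 0.138 and 0.320. Over all uncalled genes of this list the ratio ran from 0.138 to 1.26, the latter for an IFT88 match. The genes named for this ratio, the called ones and the further KIF3A match were named after their values were seen.

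Cytoplasmic dynein, the counterpart that carries cargo in every cell, gave 1 lower call of 4 tested genes, where 7.26% of all genes tested were called lower. The called gene reached 1 TPM in the non-treatment group alone, where 24.8% of all such genes were called lower. The 2 genes of the highest level, an intermediate chain (DN62437_c2_g2) at 17.5 to 22.4 TPM and a light intermediate chain (DN56527_c5_g1) at 12.7 to 21.0 TPM, were not called. The lower gene was the heavy chain of dynein 2 (DN56602_c0_g1), the motor of retrograde intraflagellar transport, at 13.5, 10.4 and 2.55 TPM against 0.275, 0.841 and 0.631 TPM, again named after its values were seen.

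Of 15 tested germ line and meiosis genes, 2 were called lower and none higher, where 7.26% of all genes tested were called lower, and the median difference was -0.31. The groups did not overlap for 6 of the 15, all lower in the antibiotic group, against 19.8% of all genes tested. The 2 genes of the highest level were an RMND1 match (DN52514_c7_g1), which is a mitochondrial protein despite its name, and aubergine (DN63335_c2_g3), a piRNA-binding protein of the germ line. Aubergine lay at 27.9, 28.9 and 20.6 TPM against 16, 29.3 and 22.0 TPM and overlapped between groups. The lower genes, named after their values were seen, were boule (DN63400_c11_g1), which male meiosis requires in Drosophila, at 67.4, 45.3 and 16.1 TPM against 1.15, 1.69 and 1.61 TPM, and the meiotic recombinase DMC1 (DN54403_c1_g1), at 4.23, 2.90 and 3.02 TPM against 0.579, 0.802 and 0.880 TPM. DMC1 reached 1 TPM in the non-treatment group alone, so the threshold fixed its direction, where 24.8% of all such genes were called lower. Of the 12 germ line and meiosis genes present in both groups 1 was called lower, against 2.67% of all such genes. Among 8 tested egg and ovary genes none was called lower and 1 was called higher, where 2.88% of all genes tested were called higher. Their sums were 23.8 to 59.6 TPM in non-treatment libraries against 27.1 to 97.8 TPM in the antibiotic libraries. The chordotonal list held 1 tested gene, a TRPV channel match (DN48992_c0_g1), which was called lower at 3.64, 2.37 and 1.06 TPM against 0.377, 0.158 and 0.104 TPM. This gene reached 1 TPM in the non-treatment group alone, so the threshold fixed its direction. Among all genes kept in that way, 24.8% were called lower. No gene carried an accessory gland name.

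**Figure D5:**
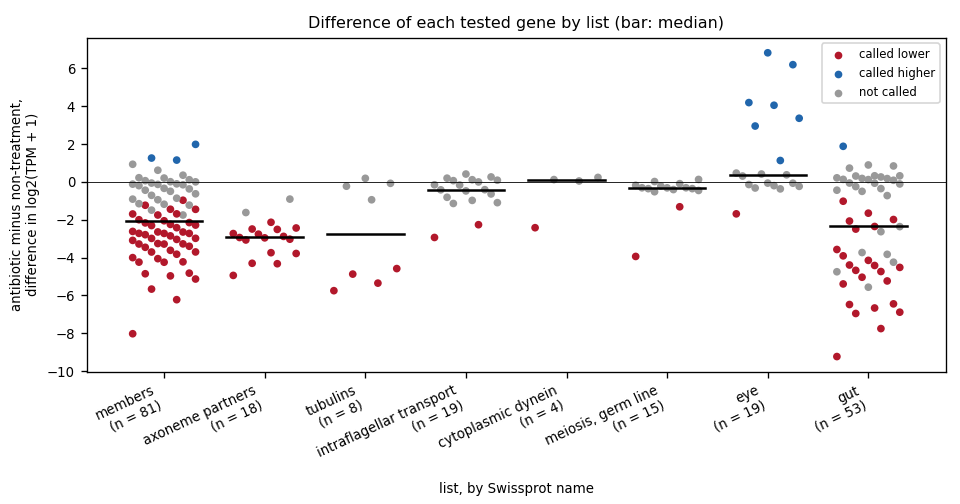
Difference between groups in log2(TPM + 1) of each tested gene (points, coloured by call) in the members and in 7 other lists, with the median of each list as a bar. All 18 axoneme partners lie below 0 at a median of -2.91, the intraflagellar transport genes run from -2.93 to 0.42 around a median of -0.41 and the germ line genes from -3.94 to 0.13 around -0.31, and eye genes are the list with 7 genes called higher.

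The threshold of 1 TPM left out 61 genes with a matching name. The members just inside it were matches of CFAP61, DNAH7 and CFAP70, with a higher group mean of 1.12, 1.40 and 1.42 TPM, and the genes just outside it matched DNAH5, DNAH1 and DNAH7 at 0.987, 0.951 and 0.821 TPM. Of the 61, 51 matched dynein heavy chains and 2 carried the keyword only through the species name Spermophilus. Their summed level was 23.0, 22.9 and 7.99 TPM in non-treatment libraries against 1.83, 2.08 and 3.26 TPM in the antibiotic libraries. The non-treatment mean was higher for 50 of them and the antibiotic mean for 4, and 7 were listed at 0 in all 6 libraries. The share over all genes under the threshold is not given, so nothing is read from these counts.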

How the data were processed

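RNA from the samples labelled head was made into libraries with a SMARTER mRNA-Seq kit and sequenced on an Illumina platform. The authors deposited TPM for 236706 Trinity genes in 6 libraries, which the methods describe as fragment numbers scaled for length and depth with featureCounts. The submitters' processing notes list FastQC, Salmon and DESeq2 and the mouse build mm10, while for the beetle reads the aligner and assembly were not given in sources used here. The deposited estimated counts were rounded and used for 5 libraries, since the count column beside the TPM of antibiotic replicate 1 is named for antibiotic replicate 2 and repeats its counts in all 236706 genes. Every count test and floor thus leaves antibiotic replicate 1 out. No sequence is printed, since no sequence of the Trinity genes was used here.

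The main test was limma 3.58.1 (R 4.3.3) on log2(TPM + 1), with its trend option and without covariates, on the 33919 genes with a mean of at least 1 TPM in a group; p-values were adjusted by Benjamini-Hochberg and called under 0.05. A fold on this scale understates changes of low genes, and limma's SE measures only the spread between these libraries. edgeR 4.0.16 and DESeq2 1.42.0 were run on the counts as alternatives, and the tests were tested on simulated data. Floors cover counting error only. Tables were made with Python 3.11.15 and pandas 2.3.3. Named genes were the 2 marker genes (protamine and the TSSK1 match of the highest level), the 3 members of the highest mean in each of 10 role groups and the 5 largest called differences each way (both with at most 1 gene for each Swissprot entry), and the 2 genes of the highest mean in each other list. Members that share a name with these, other members, and further genes of the other lists lie outside this rule and were chosen after their values were seen. The members, the lists and the tests were chosen with earlier results of these data known.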

Additional observations from a re-analysis of the deposited data

How the results depend on the processing

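Against 49 members called lower and 3 called higher, other pseudocounts, filters, scalings, fits and thresholds gave 41 to 57 lower and 2 to 4 higher. Over all genes tested in these settings, the share called lower ran from 0.831% (no filter on low values) to 14.4% (thresholds of the study). The share called higher ran from 0.248% to 5.97% in the same settings. When a library was left out, 3.48% to 8.54% of all genes tested were called lower and 1.47% to 2.43% higher. Leaving out each library in turn gave 32 (without antibiotic replicate 1) to 56 (without non-treatment replicate 3) lower and 2 to 3 higher, and 32 to 49 of the 49 lower members were called again across all alternatives. With a mean of at least 5 TPM only 59 members were tested. The 5 lower calls among members present in both groups became 1 without a filter on low values, 3 in edgeR, 3 in edgeR with DESeq2 size factors, and 0 to 7 when a library was left out, and the cause was not tested. The mean summed level went from 2049 to 968 TPM in the non-treatment group and from 1336 to 260.5 TPM in the antibiotic group without the 5 members of the highest mean, by construction.

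Fitted with the replicate number as a replicate block, 43 members were called lower and 2 higher, and 2 of the members present in both groups were called lower. In that fit 5.55% of all genes tested were called lower and 2.16% higher. Deviations from the group mean had correlations of 0.13, -0.09 and 0.10 between same-numbered libraries and of -0.17 to 0.08 between differently numbered ones. With 3 libraries per group, these values cannot decide whether the numbers pair the samples.

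Of the named genes, none with a call changed sign. Signs changed for uncalled genes near 0. The CFAP20 match DN47314_c0_g1 went from -0.13 to 0.114 in edgeR, 0.141 with DESeq2 size factors, 0.126 without a count filter and 0.141 in DESeq2, and lay between -0.292 and 0.107 when a library was left out. MOSPD2 went from -0.06 to 0.040 after median-of-ratios rescaling, 0.099 in edgeR, 0.126 with DESeq2 size factors, 0.112 without a count filter and 0.126 in DESeq2, and lay between -0.254 and 0.079 when a library was left out. RSBN1L lay between -0.027 and 0.127 and SPE39 between -0.181 and 0.213 when a library was left out. The rescaling moved the median of all genes from -0.09 to 0.005. Depth limits the genes near 1 TPM, and TPM itself carries no depth.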
